A study of Mus musculus with 3 samples.

Results

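Ms4a4b, Slfn1, Cd52 and Cd53 are genes read as markers of thymocytes that have passed positive selection, and their RNA was followed here on 3 spotted 2-colour arrays. They were chosen by their high ratios in earlier results of these same arrays, so their ratios are given as a description, with no test. Every probe with exactly 1 gene symbol in the platform annotation was used and probes of a symbol were averaged. All 4 genes were measured, by 5 of the 9596 probes on the arrays, and they stand among 6795 genes. Cd52 has 2 probes, which are also given apart. Each array carried total RNA of purified CD69hi thymocytes of B6 wild-type mice together with RNA of thymocytes from Zap70-/- mice, which were not separated. Titles call the Zap70-/- RNA CD69lo. CD69hi cells carry much of the surface protein CD69, and Zap70-/- mice lack a kinase of the T cell receptor (TCR). Genotype and purification differ together between the RNAs, so their parts in a ratio cannot be told apart. The age and sex of the mice, the way the cells were purified and the number of mice behind each RNA are not stated in the labels.

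Thymocytes test their TCR while they carry both coreceptors, CD4 and CD8. Those whose receptor binds self-peptide and MHC weakly are signalled through Zap70, raise CD69, survive and become CD4 or CD8 single-positive cells, a step known as positive selection. During the maturation that follows, thymocytes gain receptors for survival and migration and surface proteins found on peripheral T cells. In mice without Zap70 this step fails, and thymocytes accumulate at the double-positive stage. Ms4a4b encodes a membrane-spanning protein of the Ms4a family, which also contains the B cell antigen CD20, and it is known from mouse T cells. Slfn1 is a founding member of the Schlafen family, first described in mouse thymocytes, whose growth it restrains when overexpressed. Cd52 encodes a short peptide held in the membrane by a glycosylphosphatidylinositol (GPI) anchor, which many leukocytes carry. Cd53 encodes a tetraspanin, a membrane organiser found across leukocytes, including B cells and macrophages.

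Each array gave 1 deposited log ratio per probe, read here as log2, and no spot brightness, so levels cannot be compared and dim spots cannot be told from bright ones. A ratio also cannot tell more cells of a type from more RNA per cell. The dye on CD69hi RNA was Cy3 for arrays 1 and 2, while array 3 had it in Cy5. The deposited ratios of arrays 1 and 2 correlated positively across probes (Pearson r = 0.61), and those of array 3 correlated negatively with array 1 (r = -0.25) and array 2 (r = -0.40); genes are not independent replicates. Arrays 1 and 2 were therefore multiplied by -1 and every ratio reads CD69hi over Zap70-/-, a likely direction that the submitters do not state. Its basis is the reading of deposited ratios as Cy5 over Cy3, an assumption, and the low ratios of 2 genes of immature thymocytes. These are the recombinase gene Rag1 (-1.19 ± 0.36, SD, n = 3) and the terminal transferase gene Dntt (-1.05 ± 0.71). The labelled dye swap sets array 3 opposite to arrays 1 and 2 but gives no direction by itself. Dntt did not pass the test (limma adjusted p = 0.12), and both genes had their weakest ratio on array 3 (Rag1 -0.77, Dntt -0.35). If the direction were the other way, all signs given here would be reversed. The labels could not be checked by the levels of Zap70 or Cd69, which are not analysed here. The number of arrays, 3, limits the precision, and the labels do not tie them to separate mice, so p-values cover the spread between arrays alone, which may be technical.

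The stretches before the gene start are shown because all 4 genes had high ratios on every array. Ms4a4b, Slfn1 and Cd53 matched the promoter table used, and Cd52 did not. They come from RefSeq (GRCm38.p6), 250 bases each, read in the direction of the gene, with each GGAA or its reverse complement TTCC, the core letters of sites for ETS factors, in capitals. The Ms4a4b stretch is chr19:11443308-11443557 (plus strand), that of Slfn1 chr11:83116570-83116819 (plus strand) and that of Cd53 chr3:106790150-106790399 (minus strand).
Ms4a4b: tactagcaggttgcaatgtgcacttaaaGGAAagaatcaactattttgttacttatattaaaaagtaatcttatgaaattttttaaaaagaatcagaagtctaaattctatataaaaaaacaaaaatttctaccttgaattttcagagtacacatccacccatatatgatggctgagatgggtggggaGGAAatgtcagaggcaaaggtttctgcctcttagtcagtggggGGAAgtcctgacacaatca
Slfn1: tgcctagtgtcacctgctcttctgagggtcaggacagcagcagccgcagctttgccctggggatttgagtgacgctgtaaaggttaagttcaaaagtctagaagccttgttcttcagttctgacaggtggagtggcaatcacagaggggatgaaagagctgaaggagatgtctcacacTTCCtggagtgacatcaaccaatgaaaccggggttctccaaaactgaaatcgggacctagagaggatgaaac
Cd53: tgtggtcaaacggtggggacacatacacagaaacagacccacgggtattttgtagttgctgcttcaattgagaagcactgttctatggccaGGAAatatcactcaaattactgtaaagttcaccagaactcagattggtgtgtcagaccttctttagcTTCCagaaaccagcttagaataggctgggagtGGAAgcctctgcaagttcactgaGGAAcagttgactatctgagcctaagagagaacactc
The Cd53 stretch held 4 such matches, the Ms4a4b stretch 3 and the Slfn1 stretch 1, and 93.4% of 32851 promoter stretches of this length hold at least 1, with a median of 3. CACCC, which KLF factors bind, matched 2 times before Ms4a4b and not in the other stretches, and 52.0% of all stretches hold it. ACCACA, letters of RUNX sites, matched once before Cd53 (14.0% of all stretches hold it), and TATAAA once before Ms4a4b (12.4%). Both strands were searched and no match overlapped another in these 3 stretches. The stretches differed in base composition, with 34.4% G and C before Ms4a4b, 50.0% before Slfn1 and 45.2% before Cd53, against a median of 52.4% over all stretches. A match describes letters only.

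All 4 genes had ratios above 2 on the log2 scale on every array, which means more than 4-fold more signal from CD69hi RNA. Ms4a4b, the highest of them, had log2 ratios of 3.35, 3.80 and 3.26 on arrays 1, 2 and 3, a mean of 3.47 ± 0.29 (SD, n = 3) or 11.1-fold. Its lowest value was on the array with swapped dyes. Cd53 had log2 ratios of 2.97, 3.14 and 3.41, with a mean of 3.17 ± 0.23 or 9.03-fold. Slfn1 had 2.46, 2.78 and 3.11, with a mean of 2.78 ± 0.33 or 6.89-fold. For Cd53 and Slfn1 the array with swapped dyes was the highest. Cd52 had 2.13, 2.26 and 2.35, with a mean of 2.25 ± 0.11 or 4.75-fold, the lowest mean and the narrowest spread of the 4.

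The 2 Cd52 probes gave nearly the same mean ratio. The first read 2.24, 2.18 and 2.34 on arrays 1 to 3 (mean 2.25 ± 0.08, SD, n = 3), and the second read 2.02, 2.35 and 2.35 (mean 2.24 ± 0.19). They were apart by 0.22 on array 1, with the first higher, by 0.17 on array 2, with the second higher, and by 0.008 on array 3. Their means differed by 0.015. Among 576 genes with 2 probes the median difference was 0.21, and 547 of them had a larger one than Cd52. The other 3 genes rest on 1 probe each, so no such comparison exists for them.

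**Figure D1:**
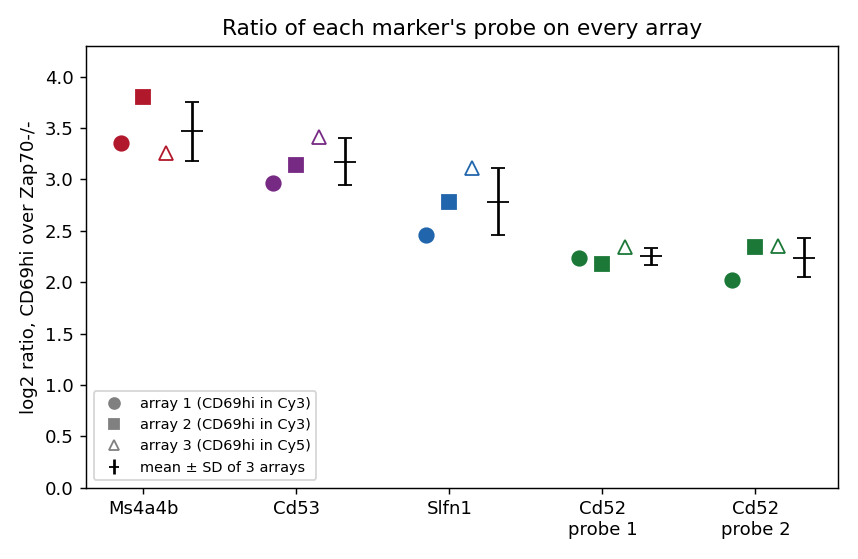
Log2 ratio of CD69hi over Zap70-/- RNA (y axis) for each of the 5 probes of the 4 genes (x axis), with 1 point per array (circle array 1, square array 2, open triangle array 3) and the mean ± SD of the 3 arrays in black. All 15 points lie above 2, and the 2 Cd52 probes sit at means of 2.25 and 2.24.

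The order of the 4 genes was Ms4a4b, Cd53, Slfn1, Cd52 on arrays 1 and 2 and Cd53, Ms4a4b, Slfn1, Cd52 on array 3. Ms4a4b and Cd53, neighbours in this order, did not differ beyond their spread: the difference of their log2 ratios was 0.30 ± 0.41 (SD, n = 3) and changed sign on array 3. Cd53 lay above Slfn1 on every array, by 0.51, 0.36 and 0.30. Slfn1 lay above Cd52 on every array, by 0.33, 0.52 and 0.76. These are differences between ratios of separate probes, which can compress ratios unequally, and not between levels of RNA.

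Ranked by mean log2 ratio among the 6795 genes, Ms4a4b was 5th, Cd53 9th, Slfn1 24th and Cd52 46th. On single arrays Ms4a4b ranked 25, 9 and 25, Cd53 27, 25 and 22, Slfn1 49, 39 and 30, and Cd52 62, 73 and 71. By the lowest of the 3 ratios, which a single high array cannot raise, they ranked 4 (Ms4a4b), 6 (Cd53), 19 (Slfn1) and 28 (Cd52). A log2 ratio of at least 2 on all 3 arrays was reached by 36 genes, among them these 4.

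A dye bias would move a gene's ratio in opposite directions on array 3 and on arrays 1 and 2. Ms4a4b had 3.26 with CD69hi RNA in Cy5, against a mean of 3.58 with it in Cy3, a difference of -0.32. Slfn1 had 3.11 in Cy5 against 2.62 in Cy3 (0.49), Cd53 3.41 against 3.06 (0.36) and Cd52 2.35 against 2.20 (0.15). The median absolute difference over all 8905 features was 0.37, and its 95th percentile was 1.31. Only Slfn1 of the 4 lay above that median. Array 3 alone had this orientation, so a dye effect and an array effect cannot be told apart, and the part of either in the ratios was not tested.

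**Figure D2:**
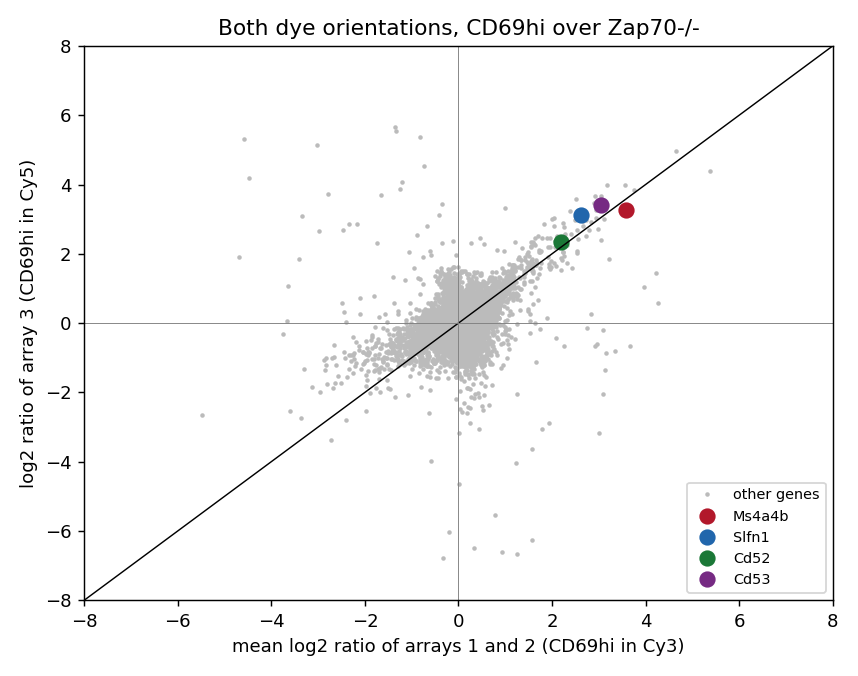
Log2 ratio of CD69hi over Zap70-/- on array 3, with CD69hi RNA in Cy5 (y axis), against the mean of arrays 1 and 2, with CD69hi RNA in Cy3 (x axis), for 6795 genes (grey) and the 4 markers (coloured); the line marks equal values. The markers lie near the line at the upper right, Ms4a4b below it by 0.32 and Slfn1 above it by 0.49.

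The genes whose 3 ratios lay closest to those of each marker were found by Euclidean distance over the 3 arrays on the log2 scale, among the 6795 genes. Cd52 had the closest company. Tes, which encodes the focal adhesion protein testin, was at a distance of 0.070 with ratios of 2.09, 2.30 and 2.39, and the complement gene C1qa followed at 0.11 with 2.13, 2.31 and 2.24. Bin1 (0.20), the MHC class II gene H2-Eb1 (0.23) and the complement gene C1qc (0.24) completed its 5 nearest. C1q and MHC class II RNAs are known from macrophages and antigen-presenting cells.

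Slfn1 was closest to Id2, an inhibitor of E proteins, at a distance of 0.21 (ratios 2.34, 2.96 and 3.14). Mapk11, a p38 kinase (0.22), Irf7, an interferon regulatory factor (0.22), Itm2a, a membrane protein induced in mouse thymocytes during selection (0.27), and Abhd12, a lipase (0.39), came next. Cd53 was closest to the metabolic enzymes Nnmt (0.26) and Ephx1 (0.30), then to the chemokine receptor gene Ccr7 (0.34), to Zbtb7b, the gene of the CD4-lineage regulator ThPOK (0.55), and to the chemokine Ccl22 (0.56). Ms4a4b had no close neighbour. Its nearest gene was the TCR-induced nuclear receptor Nr4a1 at 0.73 (3.79, 3.71 and 3.84), followed by Ccl22 (0.74), Cd53 itself (0.78), Socs4 (0.80) and Ccr7 (0.86). Few genes had ratios of this size. Likeness over 3 arrays of 1 comparison describes ratio sizes.

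Over the whole array, 618 of 8905 features passed the test (limma, Benjamini-Hochberg adjusted p at most 0.05), which is 6.94%. Of the features, 368 (4.13%) were higher and 250 (2.81%) lower in CD69hi RNA, and 285 were higher and 85 lower after the arrays were scaled to equal spread. At an unadjusted p of 0.05 or less, 1069 features (12%) were higher and 1014 (11.4%) lower. These shares are the background for the counts of relatives and list genes that follow, in which the 4 markers are not counted.

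By mean ratio, each marker stood above all its measured relatives. The markers were chosen for high ratios here, so this standing and the gaps below may come from that choice alone. Of 5 other measured genes listed for the Ms4a family, which includes the related Tmem176b, 1 rose, 0 fell (limma, 4 higher and 0 lower with an unadjusted p of 0.05 or less) and 4 did not pass; their median log2 ratio was 0.62. Ms4a6c, which lies next to Ms4a4b on the chromosome among the protein-coding genes, rose (1.18 ± 0.20, SD, n = 3, limma adjusted p = 0.024), but lost its call in the fits without array 1 (adjusted p = 0.070) and without array 2 (0.15). Its 3 ratios, 0.97, 1.37 and 1.19, did not overlap those of Ms4a4b. Ms4a6c and Ms4a6d are counted again below among macrophage and dendritic cell genes, so the counts are not separate observations. The same holds for other genes in more than 1 list, among them Slfn2, Cd37, Ly6c1, Ly6d, Ly6e and Cd160. Ms4a6d had 0.72 ± 0.38 (adjusted p = 0.10) and passed without array 3 (adjusted p = 0.041), Ms4a8a had 0.62 ± 0.08 (adjusted p = 0.061) and the B cell gene Ms4a1, which encodes CD20, had 0.41 ± 0.19 (adjusted p = 0.18). With a dye term in the fit, Ms4a6d and Ms4a8a passed (limma adjusted p = 0.047 and 0.042). That term fits array 3 exactly, so these p-values cover only the spread between arrays 1 and 2, which share a dye orientation. The p-value without array 3 has the same limit, and Ms4a6d had 0.88, 0.99 and 0.29 on arrays 1 to 3. Transcripts of related genes can bind the same spotted cDNA, so the ratios of such families are uncertain.

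The other 3 measured Schlafen genes did not pass (limma, 1 higher and 0 lower with an unadjusted p of 0.05 or less), and their median log2 ratio was 0.10. Slfn2, a quiescence factor of mouse T cells, had ratios of 0.58, 0.61 and 1.00 (0.73 ± 0.23, SD, n = 3, limma adjusted p = 0.062), all below the lowest Slfn1 ratio of 2.46. With a dye term Slfn2 passed (adjusted p = 0.035), again by the spread between arrays 1 and 2 alone. Slfn4 had 0.85, 0.16 and -0.71, and Slfn3 had -0.38, -0.42 and 0.61, so their ratios had both signs. Slfn2, Slfn4 and Slfn3 are close neighbours of Slfn1 on its chromosome.

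Of 15 other tetraspanin genes 2 rose, 0 fell (limma, 4 higher and 1 lower with an unadjusted p of 0.05 or less) and 13 did not pass; their median log2 ratio was 0.08. Those that rose were Cd82 (1.59 ± 0.17, SD, n = 3, limma adjusted p = 0.012), which restrains cell migration, and Cd37 (1.19 ± 0.14, adjusted p = 0.020), a leukocyte tetraspanin like Cd53. Neither call held in every fit, as Cd82 lost it without array 2 (adjusted p = 0.058) and Cd37 without array 1 or 2 (0.071 and 0.12). The highest Cd82 ratio, 1.69, lay below the lowest Cd53 ratio, 2.97. Of the 15 genes, 4 lay above 0 on every array and 4 lay below 0 on every array.

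Of 16 other genes of GPI-anchored surface proteins 3 rose, 2 fell and 11 did not pass (median 0.08). Ly6c1, which marks a subset of mature T cells, rose (1.76 ± 0.15, SD, n = 3, limma adjusted p = 0.0100). Cd160, a receptor of cytotoxic lymphocytes, rose (1.01 ± 0.29, adjusted p = 0.039) but lost its call in the fits without array 1 or 2 (adjusted p = 0.16 and 0.24) and after scaling (0.074). Ly6d fell (-2.36 ± 0.88, adjusted p = 0.033), and Ly6e, an antigen of immature thymocytes, fell as well (-1.13 ± 0.44, adjusted p = 0.047). The call of Ly6d ended in the fits without array 1 or 2 (adjusted p = 0.084 and 0.073), as did that of Ly6e (0.17 and 0.24), and scaling of the arrays ended both (0.082 and 0.078). Genes of this anchor class thus had ratios on either side of 0. That of Cd52, chosen for its high ratio, was the highest among the 17 measured.

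**Figure D3:**
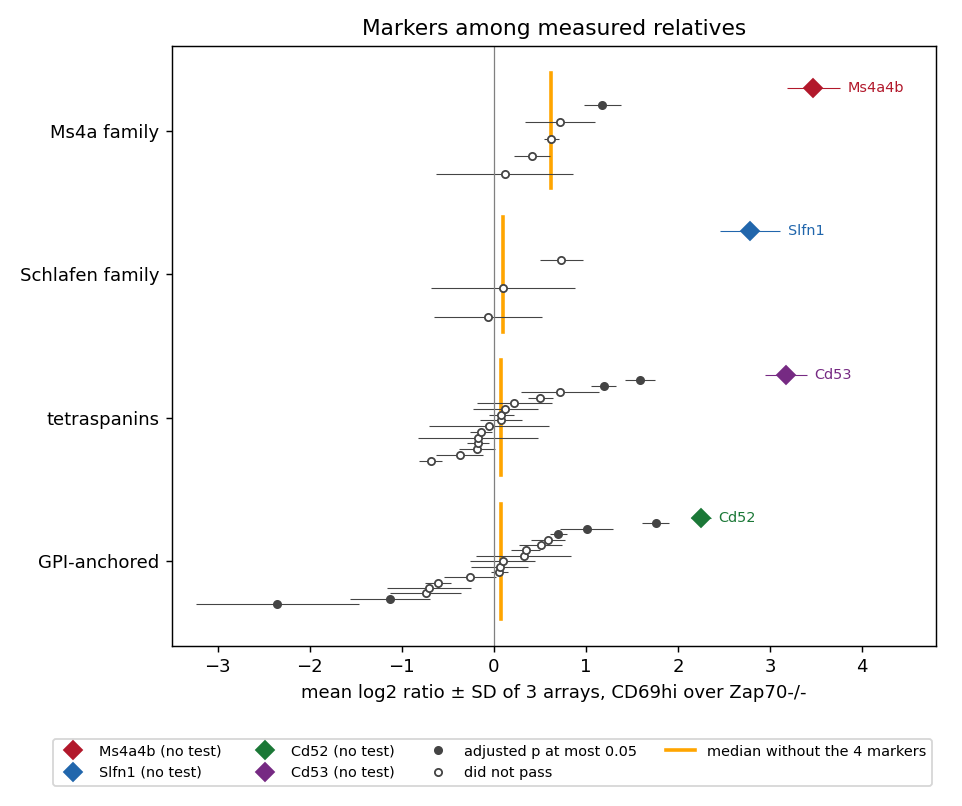
Mean log2 ratio ± SD of the 3 arrays (x axis) for the measured genes of 4 groups (y axis): the markers as coloured diamonds, other genes as circles, filled where the adjusted p was at most 0.05, and the median without the markers as an orange bar. Ms4a4b, Slfn1, Cd53 and Cd52, chosen for high ratios, each lie to the right of every other gene of their group. The medians are 0.62, 0.10, 0.08 and 0.08.

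Genes beside the markers on their chromosomes were compared as well. Of the 80 nearest protein-coding genes, 10 on each side of each marker, 21 were measured and 1, Ms4a6c, passed (limma, 8 with an unadjusted p of 0.05 or less, against 23.4% of all features). The median log2 ratio of the 21 was 0.18. Around Ms4a4b the 3 measured genes, all Ms4a relatives, ran between 0.41 and 1.18, and all 3 had an unadjusted p of 0.05 or less. Around Cd52 the 6 measured genes ran between -0.95 and 0.55, around Cd53 the 5 measured genes between -0.94 and 0.24, and around Slfn1 the 7 measured genes between -0.49 and 0.73.

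Other genes listed for maturation after selection had a higher share of calls than the array as a whole, and the list was chosen with results of these arrays known. Of its 35 measured genes beside the markers, 16 rose, 4 fell and 15 did not pass; their median log2 ratio was 0.73, against 0.01 over all features. Ccr7, which guides thymocytes into the medulla, had ratios of 2.79, 3.30 and 3.67 (3.25 ± 0.44, SD, n = 3, limma adjusted p = 0.0070). Il7r encodes the interleukin-7 receptor chain through which T cells receive survival signals, and had 2.60, 3.01 and 2.68 (2.76 ± 0.22, adjusted p = 0.0057). Klf2, a transcription factor of thymic egress, rose as well (2.43 ± 0.34, adjusted p = 0.0094), as did the integrin chain Itgb7 (2.25 ± 0.30, adjusted p = 0.0095). The 4 that fell, named after their values were seen, were Ly6e, described above as an antigen of immature thymocytes, the interferon-gamma receptor gene Ifngr1, the integrin chain Itga4 and the transcription factor Klf3, with mean ratios between -1.13 and -0.99. Ms4a4b alone of the 4 markers had a mean above that of Ccr7, and Cd52 lay just below Itgb7. Without array 2, 8 of the 35 rose and 0 fell, and without array 1, 12 rose and 0 fell (limma); with unadjusted p-values of 0.05 or less the whole list, markers included, still held 4 lower genes in each of these fits.

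Genes of immature double-positive thymocytes mostly had ratios below 0. Of 12 measured, 4 fell, 1 rose and 7 did not pass (median -0.87). The list medians on arrays 1 to 3 were -0.91, -1.10 and -0.43, weakest on the array with swapped dyes. Rag1 and Dntt, which helped to set the direction, belong to this list, so it is no independent evidence of it. Besides Ly6d, the aquaporin gene Aqp11 (-2.11 ± 0.48, SD, n = 3, limma adjusted p = 0.017) and the thymocyte phosphoprotein gene Arpp21 (-1.82 ± 0.35, adjusted p = 0.015) fell, and so did Rag1 (adjusted p = 0.035), whose call ended in the fits without array 1 or 2 (0.13 and 0.18) and after scaling (0.072). The sialyltransferase gene St6gal1 rose (2.38 ± 0.33, adjusted p = 0.0094). Without array 1 or array 2 the number falling was 2, and without array 3 it was 6. Of 7 measured genes of T cell identity only the TCR inhibitor gene Cd5 passed (4.75 ± 0.43, adjusted p = 0.0051), and the list median was -0.002; ratios do not show whether a marker was present in both RNAs.

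Most macrophage and dendritic cell genes had ratios above 0, as the 4 markers did, and this list too was chosen with results of these arrays known. Of the 22, 20 lay above 0 on every array. Marco and Itgam, named after their values were seen, had means of 0.07 and 0.04. Of 22 measured macrophage and dendritic cell genes 11 rose, 0 fell (limma, 18 higher and 0 lower with an unadjusted p of 0.05 or less) and 11 did not pass, with list medians of 0.91, 1.40 and 0.93 on arrays 1 to 3. Ccl22 (3.07 ± 0.37, SD, n = 3, limma adjusted p = 0.0068), the lysozyme gene Lyz2 (2.51 ± 0.08, adjusted p = 0.0051), the apolipoprotein gene Apoe (2.46 ± 0.14, adjusted p = 0.0057) and C1qa (2.23 ± 0.09, adjusted p = 0.0068) led this list. Ccl22, Lyz2 and Apoe had means above that of Cd52 (2.25), and C1qa had one just below it. The list also holds Ms4a6c, 1 of the 11 that rose, and Ms4a6d, both counted above as Ms4a relatives. In the fits that left out array 1, 2 or 3, 7, 6 and 12 genes of this list rose. Cd52 and Cd53 are known from such cells too, and the part of these cells in the 4 ratios was not tested; their levels in either RNA cannot be summed from ratios.

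Of 13 measured B cell genes 1 rose, 0 fell (limma, 5 higher and 0 lower with an unadjusted p of 0.05 or less) and 12 did not pass (median 0.35). Cd72, an inhibitory receptor of B cells, was the 1 that rose (0.95 ± 0.15, SD, n = 3, limma adjusted p = 0.031), though not in the fits without array 1 or 2 (adjusted p = 0.11 and 0.24). Of 10 genes of NK and innate-like lymphocytes 4 rose, 1 fell and 5 did not pass (median 0.67). Il2rb, a chain of the interleukin-2 receptor (1.82 ± 0.76, adjusted p = 0.041), and the chemokine Xcl1 (1.31 ± 0.25, adjusted p = 0.022) rose and the granzyme gene Gzma fell (-2.29 ± 0.94, adjusted p = 0.039). In the fit without array 2 the list had 0 calls, with adjusted p-values of 0.13 for Il2rb, 0.12 for Xcl1 and 0.087 for Gzma. Gzma also lost its call in the fit without array 1 (0.11) and after scaling (0.078), and Il2rb without array 3 (0.089) and with a dye term (0.051). Of 9 granulocyte genes 1 fell, 0 rose (limma, 1 higher and 7 lower with an unadjusted p of 0.05 or less) and 8 did not pass (median -0.86). Their medians on arrays 1 to 3 were -0.81, -1.16 and -0.43. S100a8, a calcium-binding protein of neutrophils, was the 1 that fell (-0.86 ± 0.27, adjusted p = 0.049), and leaving out array 1, 2 or 3 ended this call (0.18, 0.35 and 0.052), as did scaling (0.065) and fitting each probe apart (0.051).

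**Figure D4:**
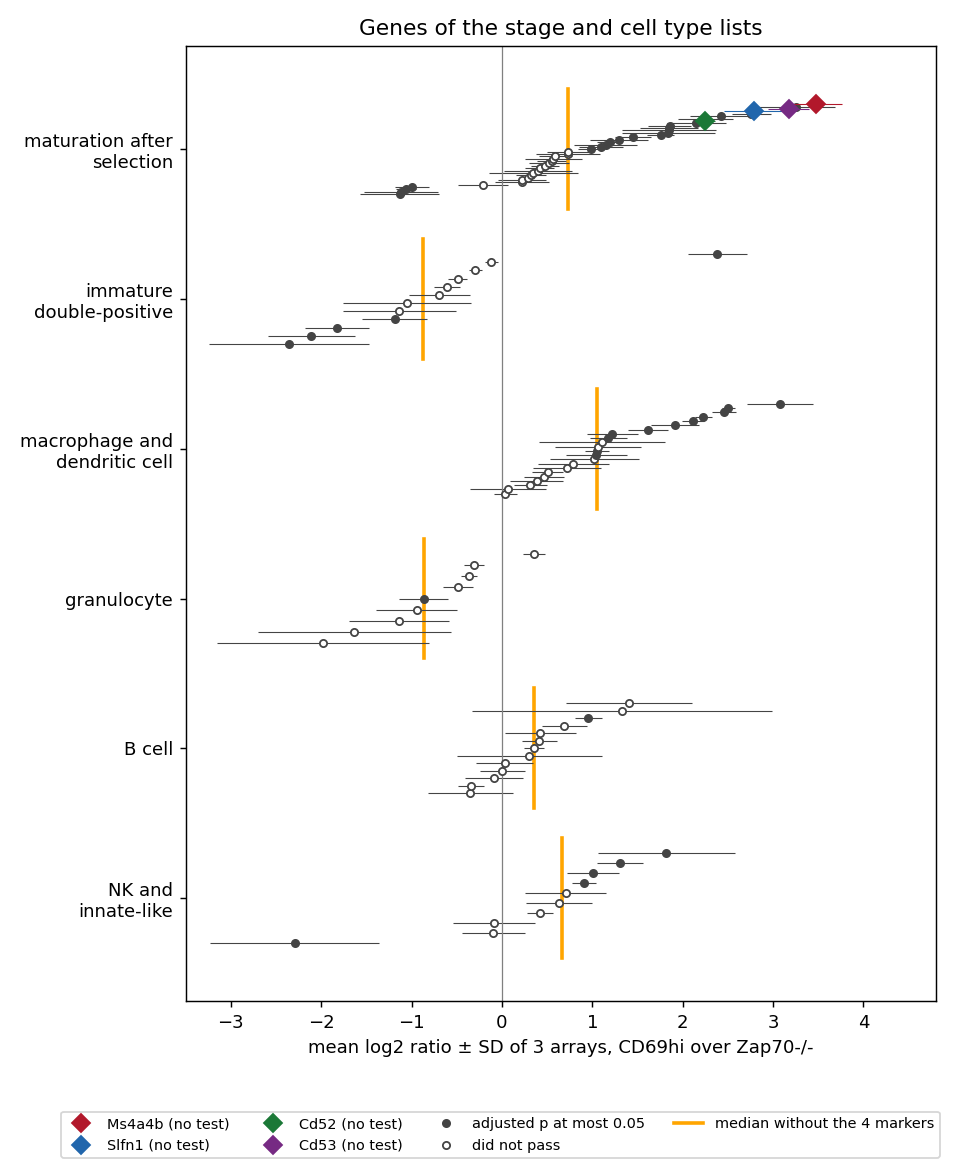
Mean log2 ratio ± SD of the 3 arrays (x axis) for genes of 6 lists (y axis): the 4 markers as coloured diamonds, other genes as circles, filled where the adjusted p was at most 0.05, and the median without the markers as an orange bar. Medians lie above 0 for maturation (0.73) and for macrophage and dendritic cell genes (1.06) and below 0 for immature double-positive (-0.87) and granulocyte genes (-0.86).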

How the data were processed

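The deposited values, 1 log ratio per probe on each of 3 arrays, were used as log2 ratios; the base is not stated, and log10 is unlikely since the authors' values reach -9.40, while a natural logarithm would make the fold changes larger. How the authors corrected background, filtered spots and normalized is not stated by the labels or the table. Of 9596 probes, 7486 had 1 symbol in the platform annotation, 483 several and 1627 none there; Entrez identifiers of 7395 were found in RefSeq, which changed 0 symbols. Averaging probes per symbol gave 8905 features, 6795 of them genes.

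Values of arrays 1 and 2 were multiplied by -1 by the labelled dyes. Features were fitted with limma 3.58.1 in R 4.3.3 (lmFit, eBayes, 1 coefficient, 2 residual and 2.75 prior degrees of freedom), two-sided, with Benjamini-Hochberg adjustment over 8905 features and 0.05 as the threshold. The fit was tested on simulated data, drawn as normal values independent between features, with shuffled spreads of these arrays and no dye or array effect. The share of false calls there need not hold for the real arrays. In 5 simulations it recovered 29.6% of log2 changes of 1 and 71.8% of log2 changes of 2, and 19 of 526 calls were false. A gene that did not pass can thus still differ. The genes and lists were chosen with earlier results of these data known. Named in each list are up to 4 called genes with the largest ratios, all measured Ms4a and Schlafen relatives, the 5 nearest genes by pattern, and Rag1 and Dntt. Measured tetraspanins were planned to be named as well, but only the called ones are. Alternatives left out each array, turned none, scaled or centred the arrays, added a dye term, combined probes otherwise or used robust shrinkage.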

Additional observations from a re-analysis of the deposited data

How the results depend on the processing

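The ratios of the 4 genes stayed above 0 without any 1 array, after scaling or centring, with a dye term and with the median of probes, and so did those of the 3 genes with 1 probe when probes were fitted apart. Every ratio of the 4 genes lay above 2 on each array, so none of these alternatives could have brought them to 0. Leaving out 1 array gave 3.31 to 3.58 for Ms4a4b, 3.06 to 3.28 for Cd53, 2.62 to 2.95 for Slfn1 and 2.20 to 2.31 for Cd52. With no array turned, and signs by convention read as on arrays 1 and 2, the ratios were 1.30 for Ms4a4b, 0.90 for Cd53, 0.71 for Slfn1 and 0.68 for Cd52, because array 3 then enters with the opposite sign. That fit called 0 features, 0 higher and 0 lower, and 0 genes of every list (limma, 342 features with an unadjusted p of 0.05 or less, 0 of them in the maturation list). Without 1 array in turn, the features called ran from 119 to 692, 95 to 283 of them higher and 24 to 409 lower. Of the 39 maturation genes, markers included, 12 to 16 were called higher and 0 to 3 lower, against 20 and 4 on all arrays. In the family and other-cell lists, with the 4 markers also included, 16 to 39 genes were called, against 33. Scaling between arrays called 370 features, 85 of them lower, and 2 maturation genes lower. A dye term called 1076 features, 562 higher and 514 lower, on 1 residual degree of freedom. The cause of these shifts was not tested. The 692 calls came from the fit without array 3. That fit and the dye term take their spread from arrays 1 and 2 alone, which share a dye orientation. Among the named relatives, Slfn4, Slfn3 and Tmem176b had means near 0 and differed widely between arrays (SD 0.78, 0.59 and 0.75). The median SD over all features was 0.27. Leaving out 1 array gave -0.28 to 0.50 for Slfn4, -0.40 to 0.11 for Slfn3 and -0.31 to 0.36 for Tmem176b. A dye term turned their means to -0.10, 0.10 and -0.00275, in that order. Centring, the median of probes and robust shrinkage changed the call of 0 named genes. No paired analysis was possible because each ratio already sets both RNAs of an array against each other, and 1 group of arrays leaves no number to block on. With 3 arrays and no spot brightness, dim spots could not be left out.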
